A study of Rattus with 6 samples.

Results

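The transcripts described here are those of 34 genes that the transcription factor p53 is known to activate. They were chosen by name for roles in cell cycle arrest, cell death, metabolism and DNA repair, with earlier results of these data known. All 34 were found by symbol among the 21378 genes of the deposited count table, and 33 of them were among the 14412 genes with enough reads to be tested. The cells were cultured rat cardiac fibroblasts from a commercial supplier, which the labels call a cell line and which carry no stated allele or strain. In 3 libraries the cells had received an siRNA against Nono by lipofection (siNONO). The other 3 libraries are titled siCtrl, while another label describes these cells as having received an empty vector, so the exact control treatment is not settled. Cells for RT-qPCR and western blots were harvested at 48 h per the labels, which state no time for sequencing. Polyadenylated RNA was sequenced. Nothing in the labels tells separate cultures from repeated preparations of 1 culture, so the p-values reflect the spread among these 6 libraries, and that spread may be technical.

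p53 is kept scarce in unstressed cells because MDM2, itself the product of a p53 target gene, marks it for degradation. After DNA damage or other stress p53 accumulates, binds sites in or near its target genes and raises their transcription. The targets halt the cell cycle (p21, encoded by Cdkn1a), repair DNA, limit growth signalling or promote apoptosis, and many of them also respond to other transcription factors. NONO, a nuclear protein that binds RNA and DNA, has known roles in splicing, transcription and the repair of DNA breaks.

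The targeted gene followed the labels. Nono (chromosome X) was at 237, 233 and 247 CPM (counts scaled to library size by TMM) in siCtrl replicates 1, 2 and 3, and at 69.9, 76.1 and 73.6 CPM in siNONO replicates 1, 2 and 3 (30.7% of the control level by the edgeR fit; p = 0.1 by an exact two-sided permutation test, the lowest value 3 against 3 libraries allow). Library totals ran from 27792357 to 33365588 counts. Of 12 fibroblast markers fixed for the label check, all were tested, 1 raised and 5 lowered, and their summed level was 36312 to 39041 CPM in siCtrl and 35035 to 35930 CPM in siNONO. Of all tested genes 16.2% were called raised and 15.9% lowered. Of the cardiomyocyte markers, Myh6, Actn2, Nppb and Ryr2 had at most 5 counts in any library and Myh7, Nppa and Mb were not among the listed genes, although Tnnt2 was present. The summed cardiomyocyte markers, nearly all of it Tnnt2, were at 145 to 162 CPM in siCtrl and 110 to 118 CPM in siNONO, with 1 of 3 tested markers lowered (Tnnt2, -0.45). The 10 macrophage markers, from Csf1r to Tyrobp, were all tested and summed to 476 to 535 CPM in siCtrl and 442 to 474 CPM in siNONO, with 4 lowered and 0 raised. Summed pericyte and smooth muscle markers were also lower in siNONO (86.3 to 96.1 against 73.2 to 78.9 CPM; 1 raised and 4 lowered of 7 tested), and endothelial markers stood at 37.96 to 39.9 against 39.4 to 41.8 CPM (1 raised and 0 lowered of 6 tested). The part of these other cell types in the changes below was not tested, and in bulk RNA fewer cells of a type cannot be told apart from less RNA per cell.

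The p53 targets were expressed over a wide range in the control cells. On the length-scaled FPKM scale that the authors deposited, 6 of the 34 were at 50 FPKM or more in siCtrl on average, 9 lay from 10 to 50 FPKM, 17 from 1 to 10 FPKM and 2 below 1 FPKM. The most abundant per length were Phlda3, a repressor of AKT signalling, with 132, 119 and 116 FPKM in siCtrl replicates 1, 2 and 3, and Ackr3, a scavenging receptor for the chemokine CXCL12, with 111, 113 and 109 FPKM. Cdkn1a followed at 105, 97.1 and 102 FPKM, below both. Ccng1 (88.3 to 90.0 FPKM), Bax (80.8 to 87.5 FPKM) and Ddit4 (69.1 to 77.6 FPKM) came next. The siCtrl values of these 6 genes did not overlap between neighbours in this order. The lowest tested member was Polk, a polymerase that copies past damaged bases, at 0.80, 0.90 and 0.83 FPKM. Perp, a membrane protein of desmosomes that p53 induces in apoptosis, had 0, 0 and 1 counts in siCtrl and 0, 2 and 1 in siNONO. That is at or under the 3 counts that a count of 0 allows (0.0899 to 0.108 CPM, counting error only), so Perp was not detectable at this depth and was not tested.

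**Figure D1:**
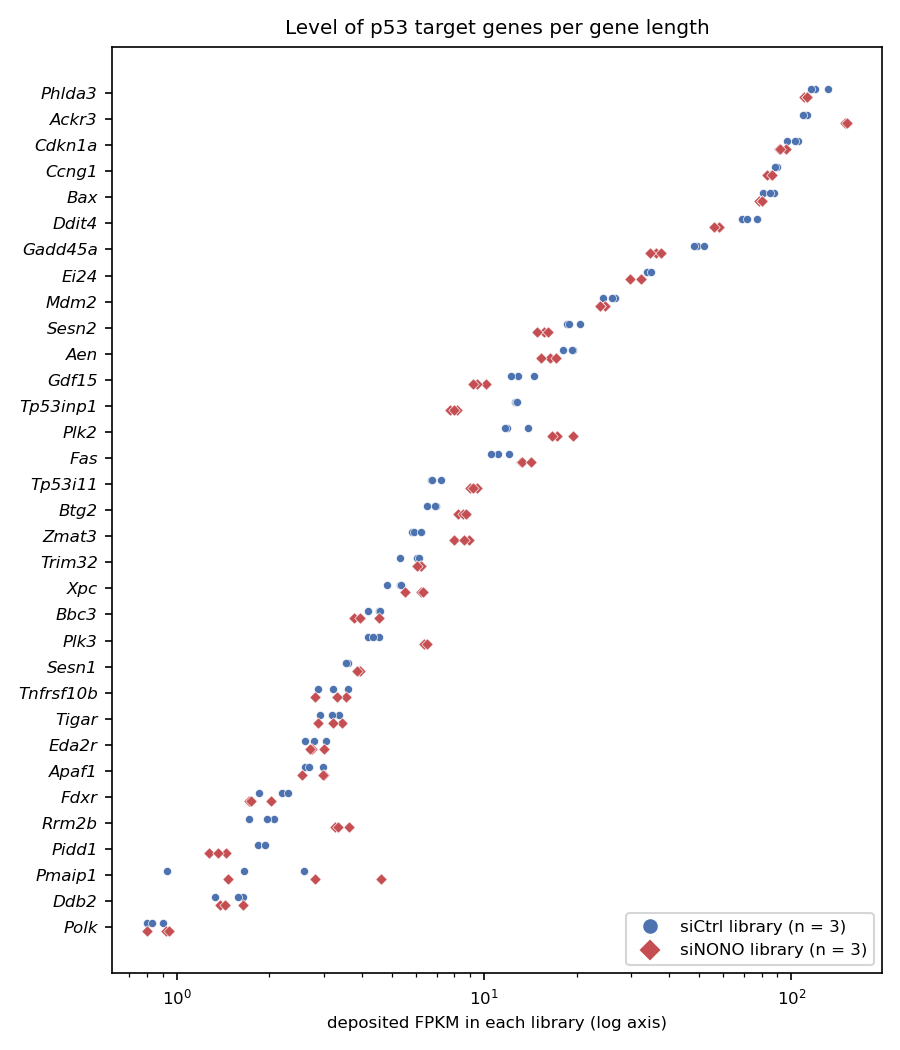
Deposited FPKM of the p53 target genes in each library (log axis; circles siCtrl, diamonds siNONO, 3 libraries each; Perp, near 0, is not drawn). Levels span from under 1 FPKM for Polk to over 100 FPKM for Phlda3, Ackr3 and Cdkn1a, and Tp53inp1, Rrm2b and Plk3 show the clearest separation of the groups.

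After Nono knockdown the p53 targets did not move as a block: some rose, more fell, and the changes were small. Of 33 tested members 8 rose and 13 fell by edgeR's quasi-likelihood test (adjusted p under 0.05, Benjamini-Hochberg over all tested genes), and 12 did not pass. The members were thus called in 63.6% of cases, where 32.1% of all tested genes were called, with 24.2% raised against a background of 16.2% and 39.4% lowered against 15.9%. Members and related lists were chosen with earlier results of these data known. Their shares, here and below, are therefore descriptions and test no excess over the background. Their median level was 26.1 CPM against 18.9 CPM for all tested genes, and the part of level in the share called was not tested. The median log2 fold change (siNONO minus siCtrl, as for all fold changes below) was -0.06 over the members and 0.00 over all tested genes, and the median size regardless of sign was 0.23 against 0.15. No member changed 2-fold, which 266 of the 4630 called genes did. Among called genes alone the median size was 0.37 for the 21 members and 0.30 for all 4630. For 22 members the CPM ranges of siCtrl and siNONO were separate, 9 with siNONO above and 13 with siNONO below; this held for 45.0% of all tested genes (22.9% above and 22.1% below). All 8 rises and 7 of the falls were called under each of 17 other settings, whereas the 6 smallest falls were not. With scaling by total library size 9 members were raised and 8 lowered, and with log2(FPKM + 1) 8 and 8, because Mdm2, Ccng1, Bax, Phlda3 and Ei24 then missed the threshold. Among all 14412 genes, total library size gave 3174 raised and 1673 lowered, and log2(FPKM + 1) gave 2829 and 1546. The main fit gave 2338 and 2292. The member median less the all-gene median was -0.06 and -0.04 in these 2 settings, and -0.06 in the main fit. Without siNONO replicate 1 there were also 8 lowered members, and 1689 lowered among all tested genes.

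**Figure D2:**
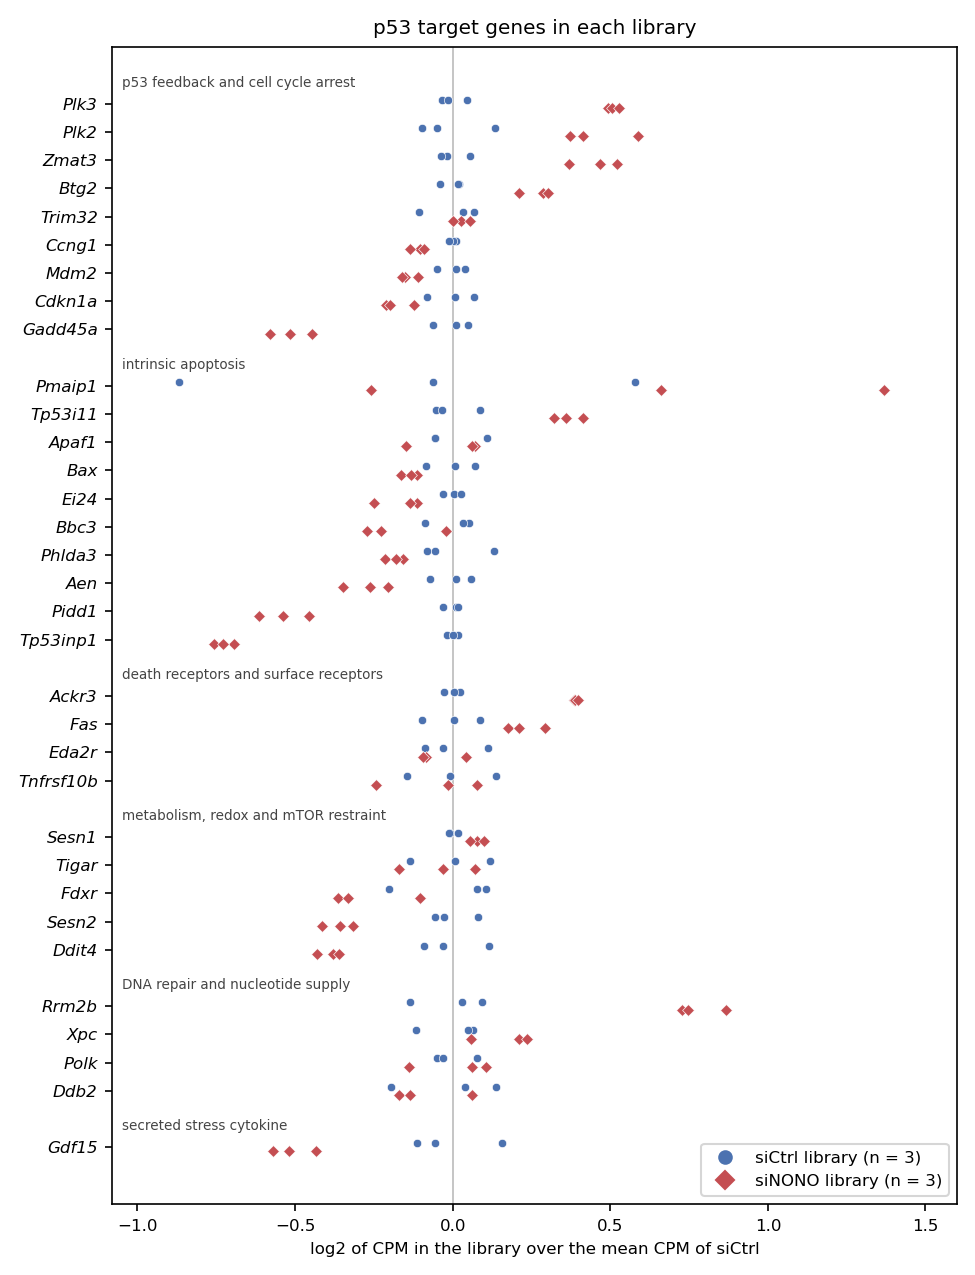
Each tested p53 target gene in each library, as log2 of its CPM over the siCtrl mean, grouped by role (circles siCtrl, diamonds siNONO, 3 libraries each). The siNONO values of Tp53inp1, Gadd45a, Pidd1 and Gdf15 lie left of all controls, those of Rrm2b, Plk3, Plk2, Zmat3 and Ackr3 lie right of them, and Pmaip1 is widely scattered in both groups.

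Among the genes of p53 feedback and cell cycle arrest, 4 of 9 rose, 4 fell and 1 did not pass, where 16.2% of all tested genes were raised and 15.9% lowered. Gadd45a, a stress protein that restrains the cyclin B kinase, fell most (chromosome 4): it was at 68.3, 64.9 and 70.1 CPM in siCtrl replicates 1, 2 and 3 and at 47.4, 49.7 and 45.3 CPM in siNONO replicates 1, 2 and 3. Every siNONO value lay below every control, and the log2 fold change was -0.51 with an SE of 0.05 (edgeR adjusted p = 3.83e-06; the figure after ± is the SE of the fold change below).

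The canonical p53 targets Cdkn1a and Mdm2 moved only slightly. Cdkn1a (chromosome 20), which encodes the cyclin-dependent kinase inhibitor p21, went from 288, 260 and 276 CPM to 237, 252 and 239 CPM, or by -0.18 ± 0.05 on the log2 scale (edgeR adjusted p = 0.00995). Its groups did not overlap, although the replicates numbered 2 nearly met at 260 and 252 CPM, and without siNONO replicate 1 the call ended (adjusted p = 0.0584). Mdm2 (chromosome 7), the ubiquitin ligase that degrades p53, had 95.2, 101 and 99.3 CPM in siCtrl and 91.4, 88.7 and 88.2 CPM in siNONO, or -0.14 ± 0.04 on the log2 scale (edgeR adjusted p = 0.0208). Its call ended without siCtrl replicate 2, siCtrl replicate 3 or siNONO replicate 3 (adjusted p from 0.0586 to 0.0744) and with the replicate number as a block (adjusted p = 0.0683). Ccng1, cyclin G1, which recruits a phosphatase to MDM2, had the smallest called fall of the members (-0.11 ± 0.04; edgeR adjusted p = 0.0396). It kept its call in only 1 of the 6 fits without a library, the one without siCtrl replicate 1 (adjusted p from 0.0697 to 0.104 in the others), and lost it with the block. For these 3 genes the siNONO level was 88.5%, 90.7% and 92.6% of control.

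The polo-like kinase genes Plk2 and Plk3, the splicing regulator Zmat3 and the antiproliferative gene Btg2 went the other way. Plk3 (chromosome 5), a stress-activated kinase, was at 11.5, 12.2 and 11.7 CPM in siCtrl and at 16.6, 16.8 and 17.02 CPM in siNONO. The replicates of each group lay close together and far from the other group, and the log2 fold change was 0.51 ± 0.07 (edgeR adjusted p = 5.01e-05). Plk2 (chromosome 2), a kinase of centriole duplication, rose from 37.6, 42.7 and 36.3 CPM to 51.7, 50.3 and 58.4 CPM (0.46 ± 0.07; edgeR adjusted p = 0.000151). Zmat3 (chromosome 2), a zinc finger RNA-binding protein through which p53 influences splicing, rose from 49.0, 48.4 and 51.6 CPM to 71.3, 64.1 and 68.6 CPM (0.45 ± 0.05; edgeR adjusted p = 1.35e-05). Btg2, which promotes mRNA deadenylation, was at 18.7 to 19.5 CPM in siCtrl and 22.2 to 23.7 CPM in siNONO (0.27 ± 0.06; edgeR adjusted p = 0.00266). Trim32, a ubiquitin ligase that also acts on p53, was at 23.0 to 25.9 CPM in siCtrl and 24.7 to 25.7 CPM in siNONO and did not pass (0.03 ± 0.06).

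Of 10 tested genes of intrinsic apoptosis 6 fell, 1 rose and 3 did not pass, beside 15.9% lowered and 16.2% raised among all tested genes. With total library size, with log2(FPKM + 1) or without siNONO replicate 1, 3 of them fell, since Bax, Phlda3 and Ei24 then did not pass. Lowered genes among all 14412 numbered 1673, 1546 and 1689 in these settings, against 2292 in the main fit. The largest fall of all 33 members was that of Tp53inp1 (chromosome 5), a p53 cofactor that also serves autophagy. It was at 87.2, 85.2 and 86.3 CPM in siCtrl replicates 1, 2 and 3 and at 53.3, 51.0 and 52.0 CPM in siNONO replicates 1, 2 and 3. Replicates of a group differed by under 3 CPM while the groups were over 30 CPM apart, and siNONO held 60.4% of the control level (-0.73 ± 0.04; edgeR adjusted p = 4.25e-08).

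Pidd1 and Aen fell as well. Pidd1 (chromosome 1), the scaffold of the complex that activates caspase-2, was at 8.75, 9.01 and 9.04 CPM in siCtrl and at 6.52, 5.84 and 6.15 CPM in siNONO (-0.54 ± 0.09; edgeR adjusted p = 0.000380). On the log2(FPKM + 1) scale, which compresses low genes, its change was -0.30. Aen (chromosome 1), a nuclease that acts in p53-dependent apoptosis, was at 53.9, 52.1 and 49.2 CPM in siCtrl and at 43.1, 40.7 and 44.9 CPM in siNONO (-0.27 ± 0.05; edgeR adjusted p = 0.00132). Neither gene's groups overlapped.

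The remaining falls of the apoptosis group were smaller and depended on single libraries. Phlda3 changed by -0.18 ± 0.05 on the log2 scale (edgeR adjusted p = 0.0171), from 214, 188 and 185 CPM in siCtrl to 168, 175 and 173 CPM in siNONO. Its siCtrl replicate 1 stood above the other two controls, and its call ended without siNONO replicate 1 (adjusted p = 0.0784) or siNONO replicate 3 (0.0507). Ei24, an endoplasmic reticulum protein, had -0.16 ± 0.05 (edgeR adjusted p = 0.0148), and its call ended without siCtrl replicate 3 or siNONO replicate 1 (adjusted p of 0.0536 and 0.0924). Bax, the pore-forming effector of mitochondrial apoptosis, went from 82.9, 74.4 and 79.2 CPM to 70.4, 72.9 and 71.9 CPM. Its fold change of -0.14 ± 0.05 (edgeR adjusted p = 0.0405) passed in only 1 of the 6 fits without a library, that without siCtrl replicate 2 (adjusted p from 0.0529 to 0.140 in the others), and neither with the block nor with the DESeq2 Wald test. With the gene length correction the change of Bax, at 916 nucleotides the shortest called member, was -0.05 (adjusted p = 0.359).

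Tp53i11 (chromosome 3), a p53-induced membrane protein, was the only member of the apoptosis group that rose, from 24.6, 22.3 and 22.6 CPM to 28.9, 30.8 and 29.7 CPM (0.37 ± 0.06; edgeR adjusted p = 0.000221). The BH3-only genes, whose products trigger BAX, did not pass. Bbc3 (PUMA) was at 14.0, 13.8 and 12.7 CPM in siCtrl and 13.3, 11.1 and 11.5 CPM in siNONO, and the groups overlapped (-0.17 ± 0.08; edgeR adjusted p = 0.134). Pmaip1 (NOXA) was counted 9, 26 and 19 times in siCtrl and 48, 17 and 33 times in siNONO. With so few reads its fold change of 0.71 ± 0.40 was the least precise of the members (edgeR adjusted p = 0.199), and the value moved with single libraries. It was 0.26 without siNONO replicate 1 (adjusted p = 0.685), 0.44 without siCtrl replicate 1 (0.446), 1.09 without siCtrl replicate 2 (0.0870) and 1.03 without siNONO replicate 2, where it passed (0.0478). Apaf1, the core of the apoptosome, had 19.7 to 22.1 CPM in siCtrl and 18.5 to 21.5 CPM in siNONO (0.00 ± 0.07).

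Among the receptors 2 of 4 rose and 0 fell (16.2% and 15.9% of all tested genes). Ackr3 (chromosome 9) was at 269, 266 and 260 CPM in siCtrl replicates 1, 2 and 3 and at 346, 347 and 349 CPM in siNONO replicates 1, 2 and 3. The siNONO libraries were nearly equal and all above the controls, at 131% of the control level (0.39 ± 0.04; edgeR adjusted p = 4.28e-06). Fas (chromosome 1), a death receptor that interferons can also induce, rose from 32.2, 34.02 and 29.97 CPM to 36.2, 37.0 and 39.2 CPM (0.23 ± 0.06; edgeR adjusted p = 0.00648). The TRAIL receptor gene Tnfrsf10b (-0.06 ± 0.10) and the ectodysplasin receptor gene Eda2r (-0.05 ± 0.06) did not pass, and their groups overlapped.

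Of the metabolic members, which limit mTOR signalling or oxidative damage, 2 of 5 fell and 0 rose (15.9% and 16.2% of all tested genes). Ddit4 (chromosome 20), an inhibitor of mTORC1 also known as REDD1, was at 152, 132 and 138 CPM in siCtrl and at 108, 110 and 105 CPM in siNONO (-0.39 ± 0.05; edgeR adjusted p = 6.65e-05). Sesn2 (chromosome 5), a leucine sensor of the sestrin family, was at 57.6, 56.5 and 62.1 CPM in siCtrl and at 45.8, 44.0 and 47.2 CPM in siNONO (-0.36 ± 0.05; edgeR adjusted p = 8.77e-05). Both genes were lower in every siNONO library. Sesn1, the paralog of Sesn2, did not pass (0.08 ± 0.06; edgeR adjusted p = 0.376), although its siNONO values of 15.1 to 15.5 CPM all lay above its controls at 14.4 to 14.7 CPM. Whether the sestrins differ in their response was not tested. Tigar, a phosphatase that diverts glucose to the pentose phosphate pathway (-0.04 ± 0.09), and the mitochondrial reductase gene Fdxr (-0.25 ± 0.12; edgeR adjusted p = 0.130) did not pass. Gdf15 (chromosome 16), the only secreted cytokine of the list, fell from 15.04, 12.98 and 12.5 CPM to 10.004, 9.42 and 9.08 CPM (-0.50 ± 0.09; edgeR adjusted p = 0.000526).

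Of the DNA repair members 1 of 4 rose and 0 fell (16.2% and 15.9% of all tested genes). Rrm2b (chromosome 7), the p53-inducible subunit of ribonucleotide reductase that supplies nucleotides for repair, had the largest rise of all 33 members. It was at 9.61, 11.3 and 10.8 CPM in siCtrl replicates 1, 2 and 3 and at 19.2, 17.5 and 17.7 CPM in siNONO replicates 1, 2 and 3. Every siNONO value was far above every control, at 171% of the control level (0.78 ± 0.08; edgeR adjusted p = 4.70e-06). Xpc and Ddb2, which recognise DNA lesions for excision repair, did not pass. Xpc had 22.0, 19.4 and 21.7 CPM in siCtrl and 24.4, 21.9 and 24.8 CPM in siNONO (0.17 ± 0.07; edgeR adjusted p = 0.0718). It was called raised with total library size (adjusted p = 0.0249) and without siCtrl replicate 1 (0.0487) or siNONO replicate 2 (0.0309). It was also called raised with no low-count filter (0.0406), with log2(FPKM + 0.1) (0.0491) and with at least 1 FPKM in 3 libraries (0.0399). Ddb2 had -0.07 ± 0.14 and Polk 0.01 ± 0.12, both at under 5 CPM.

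**Figure D3:**
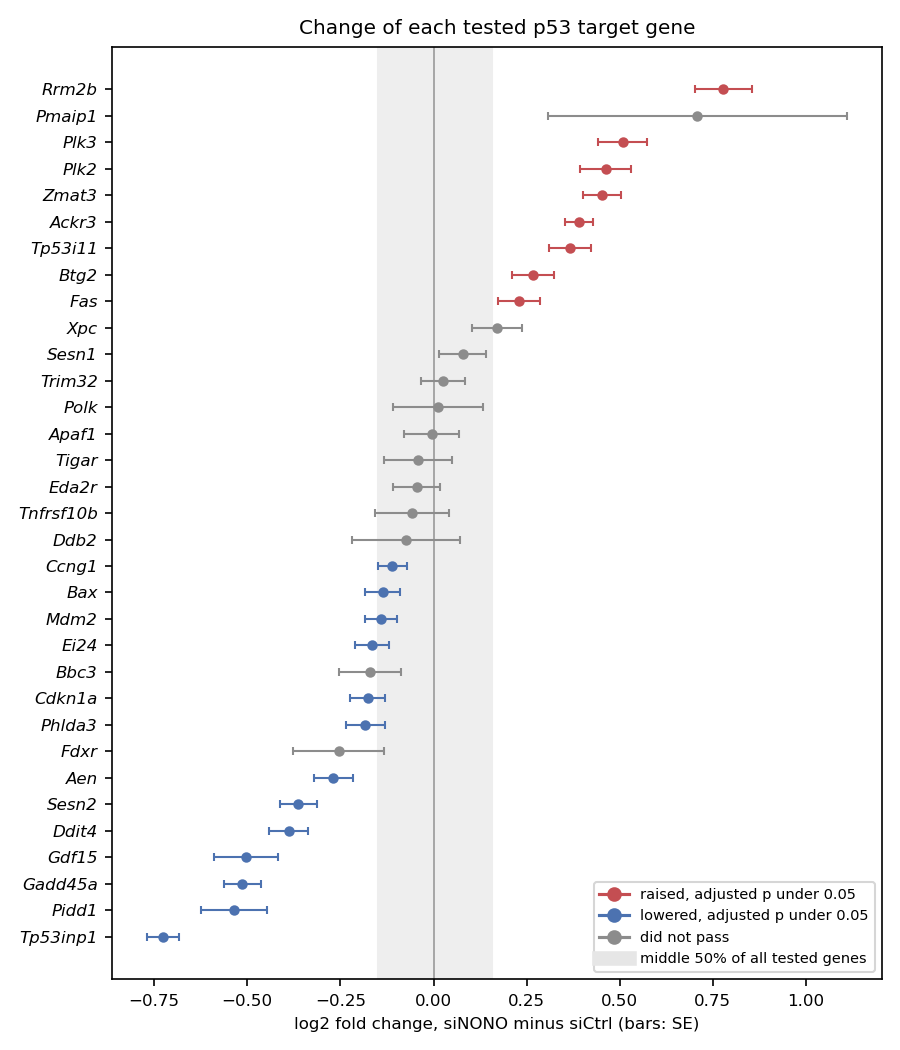
Log2 fold change (siNONO minus siCtrl) of the 33 tested p53 target genes with SE bars, coloured by call, with the middle 50% of all tested genes shaded. Values run from -0.73 (Tp53inp1) to 0.78 (Rrm2b), and the small falls of Cdkn1a, Mdm2, Bax and Ccng1 lie in or just outside the shaded band.

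Of 24 tested genes that control p53, 2 rose and 3 fell (20.8% called against the 32.1% background), with a median of -0.06. Of these regulators 8.3% were raised against a background of 16.2%, and 12.5% were lowered against 15.9%. The share called depended on the low-count filter, as given below. Zfp385a, a zinc finger protein that steers p53 towards arrest genes, rose from 90.3 ± 1.199 to 122 ± 2.05 CPM (SD, n = 3 each; 0.44 ± 0.04; edgeR adjusted p = 2.29e-06). Tp53bp1, the double-strand break protein 53BP1, rose by 0.26 ± 0.05 on the log2 scale. Ppp1r13b, a p53 cofactor of the ASPP family, had -0.30 ± 0.09, and its call ended without siCtrl replicate 2, siNONO replicate 2 or siNONO replicate 3 (adjusted p of 0.0633, 0.0579 and 0.0874). Rpl5, a ribosomal protein that can bind MDM2 and whose many near-identical copies make its count uncertain, had -0.25 ± 0.05. With total library size 4 of the list were raised and 1 lowered, and with log2(FPKM + 1) 5 and 1. Without a low-count filter 2 were raised and 6 lowered. Among all tested genes, total library size gave 3174 raised and 1673 lowered, and log2(FPKM + 1) gave 2829 and 1546. The main fit gave 2338 and 2292, and no low-count filter 2564 and 2407 of 21378 genes (23.3% called).

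A second list of 36 p53 target genes, none of them among the 34, also had calls in both directions. Of its 33 tested members 5 rose and 3 fell (24.2% called against the 32.1% background), with a median of 0.02. Raised genes made up 15.2% against a background of 16.2%, and lowered genes 9.1% against 15.9%. The median size regardless of sign was 0.11, against 0.15 for all tested genes. Pml, the organiser of PML nuclear bodies, which interferons also induce, rose from 64.0 ± 6.66 to 87.8 ± 2.12 CPM (SD, n = 3 each; 0.46 ± 0.06; edgeR adjusted p = 7.56e-05), and the cytokine gene Lif rose by 0.44 ± 0.11 on the log2 scale. The tetraspanin gene Cd82 had -0.30 ± 0.05 and the apoptosis inhibitor gene Triap1 -0.18 ± 0.06. Triap1 lost its call in 5 of the 6 fits without a library (adjusted p from 0.0512 to 0.126). It also lost it with the replicate block (0.0732), the DESeq2 Wald test (0.0766), total library size (0.115), the gene length correction (0.0899) and on each FPKM scale (0.0526 to 0.0603).

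Cell cycle genes that p53 is known to repress through p21 were raised or did not pass. Of 24 tested, 11 rose and 0 fell (45.8% raised against the 16.2% background), with a median log2 fold change of 0.26. The list was chosen with earlier results known, so its share tests no excess. The mitotic kinase gene Nek2 rose from 1.58 ± 0.251 to 2.73 ± 0.151 CPM (SD, n = 3 each; 0.78 ± 0.17; edgeR adjusted p = 0.00299), and Cenpa, the histone variant of centromeres, rose by 0.65 ± 0.13. The count rested partly on single libraries: 4 were raised without siNONO replicate 3 and 7 without siCtrl replicate 3. Raised genes among all 14412 were also fewer in these fits, 1697 and 1878 against 2338 in the main fit. The list median was 0.21 and 0.22 there. These genes were low in both groups, with a median of 7.33 CPM. Whether their rises are linked to the small fall of Cdkn1a was not tested.

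Genes of the integrated stress response, which the transcription factor ATF4 drives, were mostly lowered. ATF4 can also drive some of the p53 targets, and which of the members it drives was not examined. Of 18 tested genes of the integrated stress response list 13 fell and 1 rose (72.2% lowered against the 15.9% background). Their median log2 fold change was -0.32. This share, too, comes from a list chosen with earlier results known and tests no excess. The cystine transporter gene Slc7a11 went from 18.1 ± 2.02 to 8.65 ± 1.83 CPM (SD, n = 3 each; -1.06 ± 0.12; edgeR adjusted p = 2.17e-05), and Cth, which makes cysteine from cystathionine, had -0.69 ± 0.08. Ddit3, the death-promoting factor CHOP, was the riser, from 98.2 ± 14.4 to 132 ± 9.62 CPM (0.43 ± 0.08; edgeR adjusted p = 0.00114). Atf4 mRNA, named here only once its values were known, had -0.11 ± 0.04 and did not pass (edgeR adjusted p = 0.0576). It passed without siCtrl replicate 3 (0.0485), without siNONO replicate 2 (0.0286), with the DESeq2 Wald test (0.0462) and with the gene length correction (0.0283). In all other settings Atf4 did not pass. Its change was -0.06 with total library size (adjusted p = 0.239) and -0.07 with log2(FPKM + 1) (0.221). With the replicate block it was -0.12 (0.132). Whether this list and the p53 targets move together through shared regulators was not tested.

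**Figure D4:**
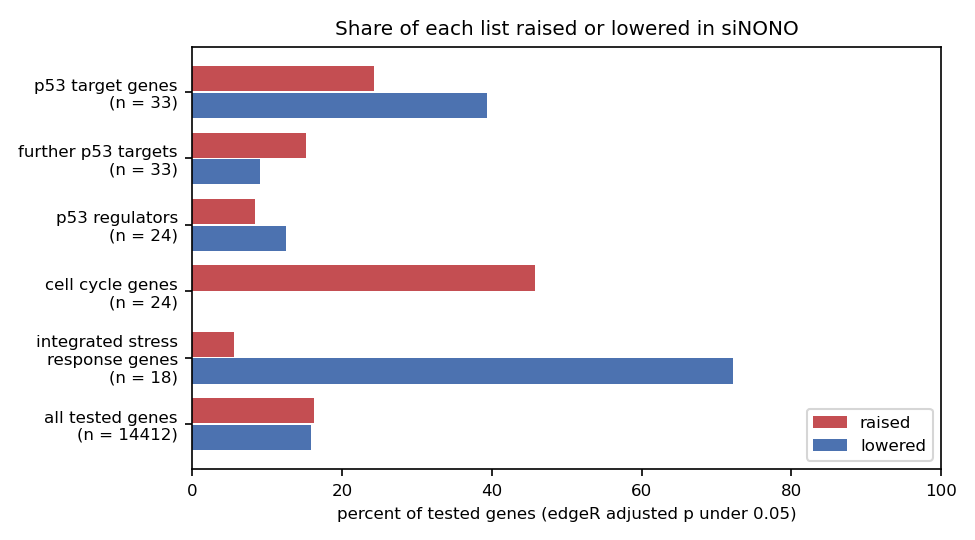
Percent of tested genes raised or lowered in siNONO (edgeR adjusted p under 0.05) in the 34-gene p53 target list, 4 related lists and all tested genes. The p53 targets show both directions (24.2% raised, 39.4% lowered), the cell cycle list rises and no falls, and the integrated stress response list mostly falls.

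**Figure D5:**
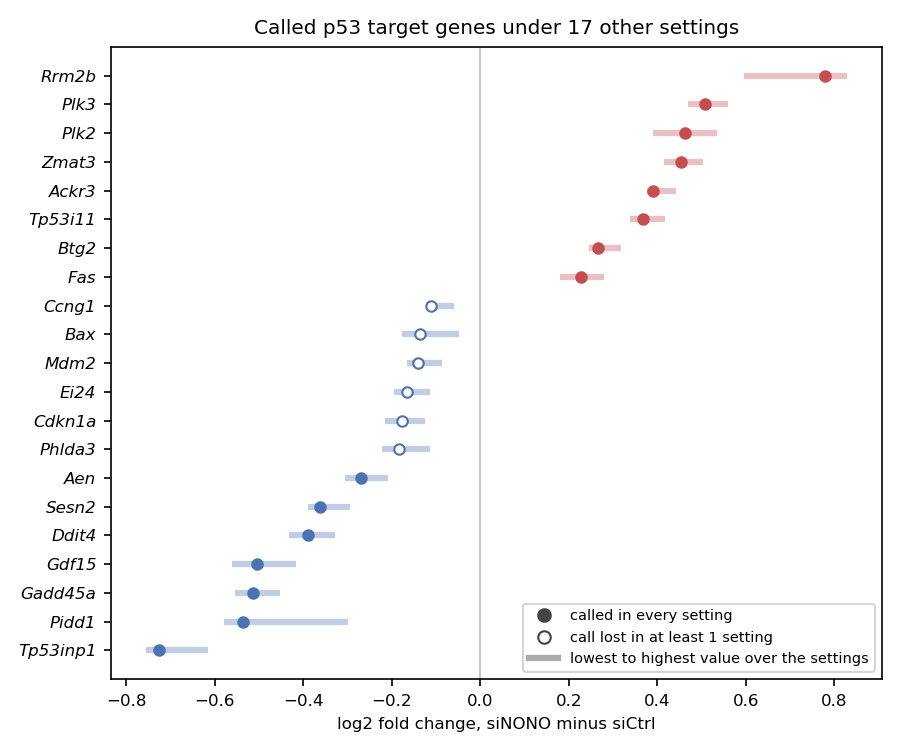
Log2 fold change of the 21 called p53 target genes (points) with the lowest and highest value over 17 other settings (bars); open points lost their call in at least 1 setting. All 8 rises and the 7 largest falls have filled points, and the 6 open points are falls of at most 0.18 in size.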

How the data were processed

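Counts were taken from the deposited table of raw read counts per gene, which are whole numbers in the file, and levels per length from the FPKM values that the authors deposited. HISAT2, edgeR and build mRatBN7.2 are named, without versions or roles, per the submitters' processing notes; which counter was run, and whether it used strand, is not given in the sources used here, so antisense and overlapping genes are uncertain. There were 0 columns of other samples. Samples were grouped by their titles; libraries of a group differed by more than counting noise (chi-square per degree of freedom 3.18 to 7.58).

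In R 4.3.3, edgeR 4.0.16 filtered genes (filterByExpr), scaled libraries (TMM) and fitted a quasi-likelihood test, two-sided, with 4 residual degrees of freedom and Benjamini-Hochberg adjustment over 14412 genes at 0.05. SE is the log2 fold change over the square root of F. In 10 simulations of siNONO against siCtrl with 200 of the 14412 genes changed, 43.6% of 1.2-fold, 79.4% of 1.5-fold and 92.0% of 2-fold changes were recovered, and 7.84% of calls were false, above the nominal 5%. In the data 4630 genes were called, far more than were changed in the simulations. Recovery of small changes depends on that share, so these percentages may not hold for the data.

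Members and lists were chosen with earlier results of these data known. All members were to be named, and from each related list up to 2 of the largest rises and 2 of the largest falls past the threshold; a further gene that the rule names is not reported here. Alternatives used DESeq2 1.42.0 and limma 3.58.1. Figures were drawn with matplotlib 3.10.9. The files give no gene positions, so none are printed.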

Additional observations from a re-analysis of the deposited data

How the results depend on the processing

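In all 17 settings Nono stayed lowered, the number of changed genes and of raised members stayed within 1.5 times the value reported, and raised members numbered 8 to 10. Members lowered numbered 13, and 8 with total library size, with log2(FPKM + 1), with log2(FPKM + 0.1) and with at least 1 FPKM in 3 libraries. The member median of -0.06 was -0.0066, -0.0039, -0.0051 and -0.0112 in those settings, in which the median of all tested genes was 0.05, 0.03, 0.05 and 0.04. Leaving out each library gave 8 to 12 lowered members and medians from -0.12 to -0.035. Of all called genes 50.5% were raised, against 65.5% with total library size and 64.7% with log2(FPKM + 1). No called member changed sign in any setting, and 10 of the 12 that did not pass were called in none; the exceptions were Xpc and Pmaip1. A correction for gene length, added after the data were seen, gave 8 raised and 12 lowered members, with or without the replicate block, Bax being the call lost. The replicate numbers did not pair the libraries (correlations of same-numbered deviations -0.05, -0.09 and -0.01); with the replicate block 3757 genes were called in place of 4630, with 8 members raised and 10 lowered (median -0.06), and Nono had a log2 fold change of -1.70. Depth limited Pmaip1, Perp, Ddb2 and Polk most.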

Other observations

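The p53 targets that rose and those that fell had median gene lengths of 2936 and 2657 nucleotides (8 and 13 genes; lengths recovered as count over FPKM and library total). Among all called genes the raised ones were longer, with a median of 4114 against 3185 nucleotides. Ackr3, at 2345 nucleotides the shortest of the raised members, rose by 0.39 on the log2 scale, and Zmat3, at 8139 nucleotides the longest, by 0.45. The part of length in single changes was not tested beyond the length correction given above.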
